A study of Mus musculus with 9 samples.

Results

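Arterial endothelial cells of the adult mouse brain were compared with venous ones, gene by gene, in cells read by full-length single-cell RNA sequencing (Smart-seq2). The series holds 1235 cells of the brain's vessels, and its annotation column gave 116 of them the label aEC and 45 the label vEC, so the comparison rests on 161 cells. No source used here spells the labels out; aEC, vEC and capilEC are read here as arterial, venous and capillary endothelial cells. Cells came from dissociated vessel fragments of adult mouse brain, with no treatment or genotype separating aEC from vEC. The strain, the sex and the number of mice are not given in the sources used here, nor is the way the labels were assigned.

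Endothelial cells line every blood vessel, and in the brain they also form the blood-brain barrier. Along the vessel tree they change character by degrees: arterial cells face fast, pulsing flow, rest on elastic fibres and smooth muscle, and depend on Notch signalling, while venous cells carry the transcription factor Nr2f2 and are the usual site where white blood cells leave the blood. Between them lie the capillary cells, which hold most of the barrier's nutrient transporters.

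The cells were sequenced on 4 plates, named s169s, s480s, s482s and s483s in the cell names, and plate values are given in that order throughout. They held 7, 26, 41 and 42 aEC and 14, 6, 12 and 13 vEC, so plate s169s supplied 6.03% of aEC but 31.1% of vEC. Summed over cells, aEC had 31307636 reads in genes and vEC 14114631, with medians of 235862.5 and 261300 reads per cell. No cell name occurred in both types, and no 2 cells had identical counts. Thinned to 100000 reads, an aEC cell had a median of 2795.5 genes and a vEC cell 3287. Since no mouse is named for a cell, each type counts as 1 sample: no test between them is possible, no p-value is given, and whether a difference would recur in other mice was not tested. Spread is shown instead by plate, and intervals are exact 95% Poisson intervals of the summed reads, which cover counting error only, because reads made by PCR without molecular identifiers are not independent molecules. If the labels were drawn from these cells' own expression, any gene may have helped to choose its cells, so all differences below are descriptions.

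Levels are given as CPM, the reads of a gene per 1000000 reads of all genes in the summed cells, and the log2 difference is log2(CPM + 5) in aEC minus the same in vEC, so a positive value means higher in aEC. A gene met the rule of size when it reached 50 CPM in the higher type, had a read in 50% of that type's cells or more, and differed at least 4-fold. Of 11960 genes above 5 CPM in either type, 61 met the rule with aEC higher (0.510%) and 54 with vEC higher (0.452%). In 56 of the 61 and 52 of the 54 the direction was the same on all 4 plates; the exceptions were Edn1, Gja4, Hspg2, Lmo7 and Stra6 with aEC higher, and Chn2 and Tmem176a with vEC higher. With TMM scaling factors in place of read totals the counts were 82 and 47, since TMM moved the median of all genes by 0.18 on the log2 scale. At 2-fold or more, 1877 genes were higher in aEC (15.7%) and 1863 in vEC (15.6%). These shares over all genes are the background for every count by list below. The median over all measured genes was -0.07, with plate medians of -0.10 to 0.08.

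**Figure D1:**
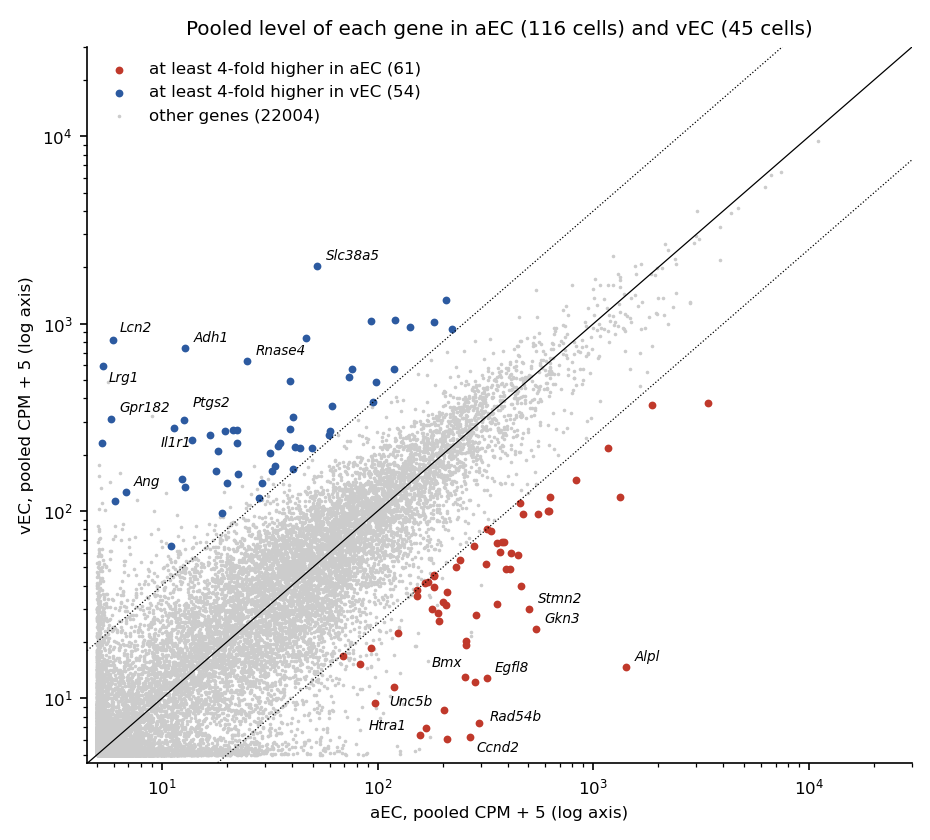
Pooled level of each gene in aEC (horizontal axis, CPM + 5, log axis) and in vEC (vertical axis, CPM + 5, log axis); the solid line marks equal levels and the dotted lines a 4-fold difference. Most genes lie between the dotted lines, with the 61 genes that met the rule of size towards aEC at the lower right and the 54 towards vEC at the upper left; Alpl and Lcn2 lie farthest out.

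The widest difference towards aEC was that of Alpl, which encodes tissue-nonspecific alkaline phosphatase, an enzyme long used to stain arterioles and capillaries in brain. Alpl stood at 951, 1887, 1359 and 1215 CPM in aEC, against 2.13, 45.7, 3.78 and 3.63 CPM in vEC; every aEC plate lay above every vEC plate. Pooled, it had 1414 CPM in aEC (1401 to 1427) and 9.64 CPM in vEC (8.08 to 11.4), a log2 difference of 6.60. Single cells of the 2 types overlapped on this gene, though their medians lay far apart. The lowest, median and highest aEC cell had 0, 1185 and 6282 CPM. The lowest, median and highest vEC cell had 0, 2.29 and 114 CPM. After thinning, 94 of 116 aEC cells and 2 of 45 vEC cells had at least 50 CPM, which is 5 reads and is called high below.

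The widest differences towards vEC were those of Lcn2 and Lrg1, which encode lipocalin 2, an iron-carrier binding protein of the acute phase, and a leucine-rich glycoprotein that modulates TGF-beta signalling. Lcn2 had 0, 0.408, 1.29 and 1.02 CPM in aEC, against 1341, 499, 956 and 538 CPM in vEC, and Lrg1 had 0.660, 0, 0.516 and 0.277 CPM in aEC, against 951, 427, 484 and 545 CPM in vEC. In both genes every aEC plate lay below every vEC plate; the plates without a read in aEC allow up to 1.98 CPM (Lcn2, s169s) and 0.408 CPM (Lrg1, s480s), the level of 3 reads. Pooled, Lcn2 had 0.926 CPM in aEC (0.620 to 1.33) and 809.8 CPM in vEC (795 to 825) and a log2 difference of -7.10, and Lrg1 had 0.319 CPM in aEC (0.153 to 0.587) and 591 CPM in vEC (579 to 604) and a log2 difference of -6.81. High cells numbered 0 aEC cells and 32 vEC cells for Lcn2, and 0 aEC cells and 23 vEC cells for Lrg1.

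Promoters are shown for Alpl and for 3 vEC genes of the acute phase group that were all higher in vEC, Lcn2, Lrg1 and Ptgs2, the last encoding cyclooxygenase 2. Each runs 5′ to 3′ on the gene's own strand, from 250 bases before the start of transcription to 50 after it, from RefSeq on build GRCm38.p6. Capitals mark a match, on either strand, to the TATA box TATAAA or to the C/EBP palindrome TTGCGCAA. The windows are chr4:137796335-137796634 (minus strand) for the upstream start of Alpl, chr2:32387690-32387989 (minus) for Lcn2, chr17:56121897-56122196 (minus) for Lrg1 and chr1:150099781-150100080 (plus) for Ptgs2.

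Alpl: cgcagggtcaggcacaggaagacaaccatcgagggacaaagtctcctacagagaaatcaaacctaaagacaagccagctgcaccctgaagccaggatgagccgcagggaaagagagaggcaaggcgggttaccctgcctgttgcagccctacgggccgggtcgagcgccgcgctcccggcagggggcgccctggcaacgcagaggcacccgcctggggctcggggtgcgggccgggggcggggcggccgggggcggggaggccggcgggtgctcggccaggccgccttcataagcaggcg

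Lcn2: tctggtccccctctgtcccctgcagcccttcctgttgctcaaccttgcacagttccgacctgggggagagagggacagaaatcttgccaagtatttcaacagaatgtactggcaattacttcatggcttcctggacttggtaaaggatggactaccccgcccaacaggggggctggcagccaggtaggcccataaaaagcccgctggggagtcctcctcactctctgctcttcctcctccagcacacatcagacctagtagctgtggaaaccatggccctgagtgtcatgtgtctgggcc

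Lrg1: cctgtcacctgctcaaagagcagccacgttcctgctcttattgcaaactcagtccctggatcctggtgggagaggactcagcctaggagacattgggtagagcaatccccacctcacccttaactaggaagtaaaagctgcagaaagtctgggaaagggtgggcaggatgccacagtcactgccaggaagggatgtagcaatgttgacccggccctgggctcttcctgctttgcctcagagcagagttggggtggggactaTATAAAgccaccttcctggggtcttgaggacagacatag

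Ptgs2: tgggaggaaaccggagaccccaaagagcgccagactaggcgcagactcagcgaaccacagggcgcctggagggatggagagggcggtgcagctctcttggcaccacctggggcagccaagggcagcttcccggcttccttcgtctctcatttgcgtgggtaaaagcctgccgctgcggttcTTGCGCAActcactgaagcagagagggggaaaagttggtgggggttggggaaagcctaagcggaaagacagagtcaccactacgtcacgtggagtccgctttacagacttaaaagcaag

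The capitals in Ptgs2 are the C/EBP palindrome at −69 from the start, and Ptgs2 was the only gene with this match among the 40 vEC genes in the promoter table (2.5%, against 0.207% of all 27025 genes of the table; a gene counts when any of its windows holds the motif). Those in Lrg1 are a TATA box inside the transcribed part, at position 12. The window of a downstream start of Alpl, which is not shown, holds a TATA box on the opposite strand at −192, and TATAAA was in 14% of the aEC and 7.5% of the vEC genes, against 15.7% of all. The NF-kB motif, GGGA followed by N and TTTCC, was in none of the 50 aEC and none of the 40 vEC genes, against 0.466% of all genes. The RBPJ motif GTGGGAA, read by the Notch pathway's DNA-binding factor, was in 8.0% of the aEC and 5.0% of the vEC genes, against 7.25% of all. The SOX motif ACAATG was in 14% of the aEC and 10% of the vEC genes, against 14.3% of all, and the AP-1 motif TGANTCA in 8.0% of the aEC genes and none of the vEC genes, against 8.97% of all. These shares describe letters in a 300-base window. For the rare NF-kB and C/EBP motifs, lists of 50 and 40 genes are too short to tell their counts from the share of all genes.

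Among 23 measured genes of an arterial identity list, 9 met the rule with aEC higher and 0 with vEC higher. The list's median was 2.01 (1.74 to 2.97 by plate), beside -0.07 over all genes. The leading members were Alpl and genes of several unrelated roles. Gkn3, a gastrokine that marks brain arterioles in mouse, stood at 626, 482.2, 552 and 539.6 CPM in aEC, against 2.49, 1.43, 17.6 and 34.4 CPM in vEC, with a pooled log2 difference of 4.53; every aEC plate lay above every vEC plate. It was high in 52 of 116 aEC cells and 2 of 45 vEC cells, and the top vEC cell alone held 65.4% of the vEC reads. Stmn2, a stathmin that binds tubulin and is better known from neurons, stood at 343, 379, 639.8 and 450.3 CPM in aEC, against 2.13, 50, 58.9 and 1.34 CPM in vEC, a log2 difference of 4.07. Bmx, a non-receptor tyrosine kinase of arterial endothelium, stood at 218, 213, 333 and 184 CPM in aEC, against 11.7, 0.476, 19.1 and 0.574 CPM in vEC, a log2 difference of 4.28. All 3 separated the types on every plate, but Bmx no longer met the rule without plate s482s. In capilEC these genes were also higher on plate s169s than on the other plates, by 2.29 (Gkn3), 1.98 (Stmn2) and 1.13 (Bmx) on the log2 scale, while s169s supplied the larger share of vEC. Of the 61 aEC genes, 22 differed 2-fold or more in capilEC between s169s and the other plates. On s169s 7 of them were higher and 15 lower, with Alpl and Unc5b among the lower. Of the 54 vEC genes 6 did so, 3 higher and 3 lower. The share over all genes was not counted, and the part of this plate in the pooled differences was not tested.

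Egfl8, a secreted relative of Egfl7, had 354, 305, 361 and 266 CPM in aEC, against 3.55, 5.71, 2.77 and 14.7 CPM in vEC, a log2 difference of 4.64. Its exons share bases with Gm20460 on the same strand and with Agpat1 on the other, so its reads are not certain to be its own. The call of Egfl8 was lost with equal weight for plates and in thinned cells. Sema3g, a secreted semaphorin of arteries, was high in 25 aEC cells and 0 vEC cells, with 63.6 CPM in aEC and 0.142 CPM in vEC (50.4 to 107 CPM over the aEC plates and 0 to 0.252 CPM over the vEC plates); it was read in 30.2% of aEC cells and so did not meet the rule. The transcription factor gene Sox17, needed for arterial fate, had 749.7 CPM in aEC and 271 CPM in vEC, a log2 difference of 1.45 that was negative on plate s169s (-1.04 to 1.58 over plates). Mgp, which encodes an inhibitor of calcification and of BMPs, had 430 CPM in aEC and 196 CPM in vEC, with plate differences of both signs (-0.36 to 2.96), and was high in 44 aEC cells and 12 vEC cells. Efnb2 and Gja5, textbook arterial genes, were barely read: Efnb2 had 12.4 CPM in aEC and 5.03 CPM in vEC and Gja5 9.81 CPM in aEC and 4.75 CPM in vEC, and their plate differences took both signs.

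**Figure D2:**
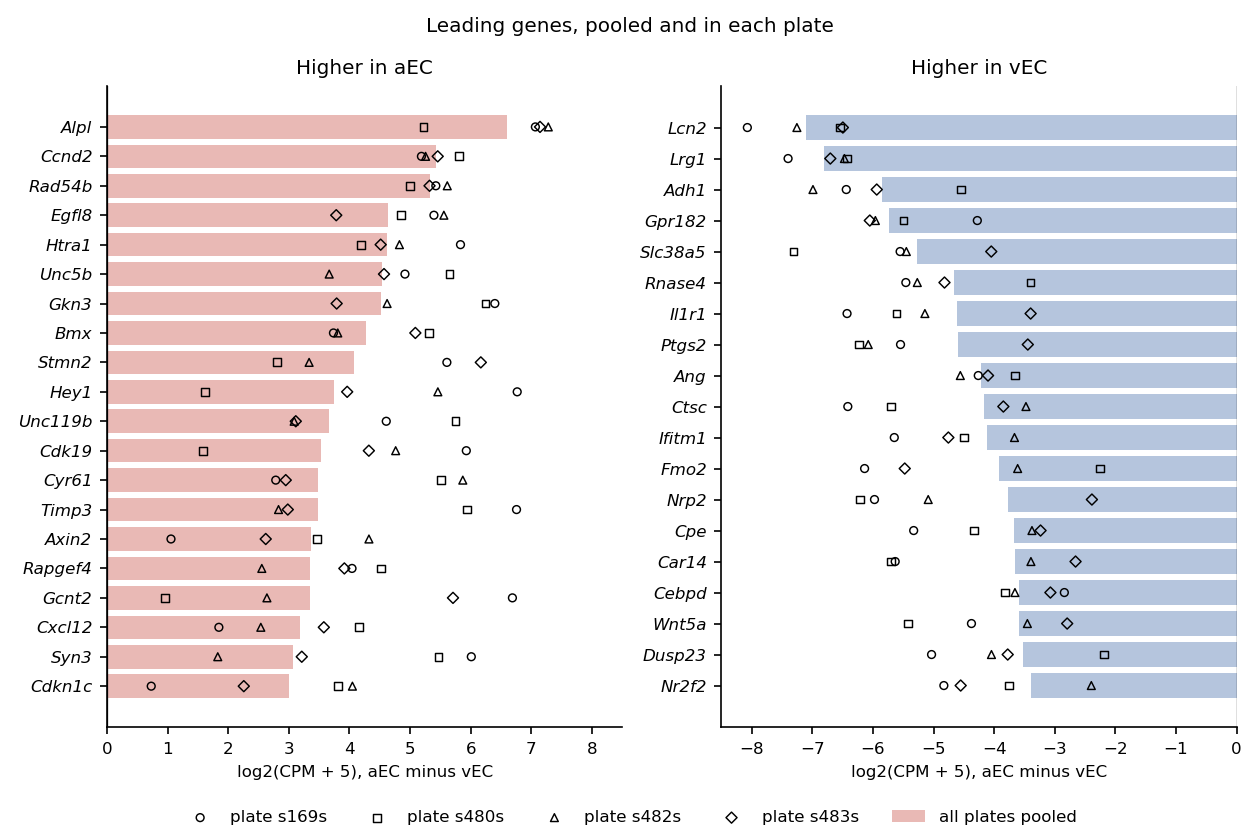
Log2 difference, log2(CPM + 5) in aEC minus vEC, of the leading genes: the bar is the pooled value and each symbol 1 plate, with genes higher in aEC in the left panel and those higher in vEC in the right panel. Every symbol lies on the side of its bar, because only genes with the same direction on every plate were drawn. The plates of several genes in both panels, such as Hey1, Gcnt2, Cdkn1c, Cdk19, Timp3, Stmn2 and Nrp2, spread over more than 3 units. Those of Ccnd2, Rad54b and Ang lie within 1 unit.

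Notch signalling runs from a ligand on one cell to a receptor on its neighbour, whose freed tail switches on Hey and Hes genes with Rbpj. Of 19 measured genes of the pathway only the target Hey1 met the rule, with aEC higher, and none with vEC higher; the median was 0.79 (0.13 to 1.62 by plate), with 9 genes past 2-fold towards aEC and 3 towards vEC. Ligands came out higher in aEC for Jag2 (146 against 14 CPM), Dll4 (141 against 45.8 CPM) and Jag1 (51.2 against 27.6 CPM), each given as aEC against vEC, and lower for Dll1 (15.6 against 43.1 CPM). Dll4 kept a like difference on every plate, 1.72 to 2.10 on the log2 scale. Of the receptors, Notch1 had 617 CPM in aEC and 219.8 CPM in vEC and Notch4 120.1 CPM in aEC and 19.1 CPM in vEC; their log2 differences were 1.47 and 2.38, and that of Notch4 took both signs over plates (-0.10 to 4.95). Rbpj itself was lower in aEC on every plate, with 12.8 CPM in aEC and 52 CPM in vEC.

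Hey1, a transcriptional repressor of venous genes, stood at 694, 278, 337 and 78.9 CPM in aEC, against 1.42, 87.1, 2.77 and 0.382 CPM in vEC, with a pooled log2 difference of 3.74. On plate s480s the 2 types lay closest, and a single vEC cell held 90.5% of all vEC reads of the gene. It was high in 39 of 116 aEC cells and 1 of 45 vEC cells. The call did not hold in thinned cells or without plate s169s or s482s. Hes1, the general Notch target, had 176 CPM in aEC and 166 CPM in vEC and a log2 difference of 0.08.

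Of 25 transcription factor genes of the endothelium, Mecom met the rule with aEC higher and Nr2f2 with vEC higher. Nr2f2, the orphan receptor COUP-TFII that holds venous identity, stood at 1.32, 2.31, 18.9 and 0.647 CPM in aEC, against 175, 93.3, 121 and 128 CPM in vEC; every aEC plate lay below every vEC plate. Its pooled log2 difference was -3.40, and 217 of its 245 aEC reads came from a single cell of plate s482s. Mecom, a zinc-finger regulator, had 178 CPM in aEC and 40.5 CPM in vEC and a log2 difference of 2.01, at the edge of the rule, and lost the call in 6 alternatives, among them those without plate s169s and without s483s. The shared endothelial regulators stood close in both types: Erg had 142 CPM in aEC and 83.3 CPM in vEC, Fli1 187 CPM in aEC and 202 CPM in vEC, Klf2 649 CPM in aEC and 536 CPM in vEC and Sox18 1179 CPM in aEC and 794 CPM in vEC. Foxq1, a forkhead factor of brain endothelium, had 386 CPM in aEC and 135 CPM in vEC and was higher in aEC on every plate (0.96 to 2.62), short of 4-fold.

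Among growth factor genes (21 measured, median 0.49, -0.10 to 0.76 by plate) only Nrp2 met the rule. Nrp2, the co-receptor of VEGF-C and of semaphorins that marks veins, stood at 0, 0.543, 0.775 and 41 CPM in aEC, against 309, 406, 191 and 236 CPM in vEC; every aEC plate lay below every vEC plate, and the log2 difference was -3.78. The aEC level rested on plate s483s, and without that plate the log2 difference was -5.66. Its relative Nrp1 had 165 CPM in aEC and 108 CPM in vEC. The VEGF receptors split: Flt1, a decoy receptor, had 2793 CPM in aEC and 1295 CPM in vEC (log2 1.11, 0.90 to 1.25 over plates), while Kdr, the signalling receptor, had 321 CPM in aEC and 556 CPM in vEC (log2 -0.78, -2.87 to -0.53). Both differences kept their sign on every plate and were short of 4-fold. Vegfc, the ligand, was high in 31 aEC cells and 8 vEC cells, with 207 CPM in aEC and 74.2 CPM in vEC and both signs over plates. Aplnr, the apelin receptor of venous and sprouting cells, had 0.128 CPM in aEC and 65.6 CPM in vEC and a read in 28.9% of vEC cells, too few for the rule. Igfbp3, which binds insulin-like growth factors, was high in 21 aEC cells and 0 vEC cells (122 CPM in aEC and 0.213 CPM in vEC), also in too few cells.

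In the TGF-beta and BMP group (23 measured, median 0.20, 0.0 to 0.34 by plate) Tgfb2 and Ltbp4 met the rule with aEC higher. Tgfb2, the ligand, stood at 775, 731, 511 and 442 CPM in aEC, against 76.7, 149, 79.9 and 83.9 CPM in vEC, and every plate gave a difference of 2.25 to 3.25. Ltbp4, which holds latent TGF-beta in the matrix and helps to assemble elastic fibres, had 367, 1346, 1198 and 1129 CPM in aEC, against 242, 154, 232 and 207 CPM in vEC, a log2 difference of 2.43 that was 0.59 to 3.09 over plates. The receptors of endothelial BMP9 signalling were higher in aEC without reaching 4-fold, with 2221 against 997 CPM for Eng and 684 against 195 CPM for Acvrl1, aEC first. Bambi, a decoy receptor, was lower in aEC on all plates, with 26 CPM in aEC and 143 CPM in vEC and a read in 48.9% of vEC cells, just under the share the rule needs.

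Wnt signalling, which builds and keeps the barrier, showed 1 call among 19 genes (median 0.70, 0.24 to 1.07 by plate): Axin2, a feedback inhibitor that Wnt switches on. Axin2 stood at 10.6, 92.5, 150.3 and 103 CPM in aEC, against 2.49, 3.81, 2.77 and 12.6 CPM in vEC, a log2 difference of 3.37. Plate s169s had the lowest aEC value, as it had in capilEC (log2 -2.41 against the other plates), and the call was lost without plate s482s, with equal weight for plates and in thinned cells. Notum, a secreted Wnt inhibitor (122 against 4.82 CPM), and Lrp5, a Wnt co-receptor (125 against 4.39 CPM), given as aEC against vEC, had larger differences than Axin2 but were read in 42.2% and 48.3% of aEC cells. Lef1, the nuclear effector, stood at 265 CPM in aEC and 300 CPM in vEC. Wnt5a, a ligand of the branch without beta-catenin, was among the leading vEC genes, with 1.32, 0.815, 12.7 and 7.12 CPM in aEC, against 126, 245, 189 and 79.2 CPM in vEC and a log2 difference of -3.58.

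Axon guidance genes that vessels share with nerves gave 1 call among 17. Unc5b, a netrin receptor of arteries and sprouting tips, stood at 146, 294, 212 and 123 CPM in aEC, against 0, 0.952, 12.1 and 0.382 CPM in vEC; every aEC plate lay above every vEC plate, and the log2 difference was 4.54. The call was lost in thinned cells. Ephb4, the textbook venous receptor for Efnb2, did not separate the types: it had 83.2 CPM in aEC and 85.8 CPM in vEC, and its plate differences ran from -2.16 to 4.08.

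Matrix genes leaned to aEC: of 28 measured, 17 had a 2-fold or larger excess in aEC and 0 in vEC, and the median was 1.29 (0.06 to 1.49 by plate). The 4 that met the rule, all with aEC higher, were Timp3, Lama5, Hspg2 and Ltbp4. Timp3, which inhibits metalloproteinases and binds to the matrix, stood at 1841, 1352, 1166 and 1412 CPM in aEC, against 12.1, 17.1, 159.7 and 174 CPM in vEC; every aEC plate lay above every vEC plate. Its log2 difference was 3.48 and it was high in 95 of 116 aEC cells and 13 of 45 vEC cells. Syn3, the neuronal synapsin gene whose exons overlap those of Timp3 on the other strand, had 406 CPM in aEC and 44.1 CPM in vEC and a log2 difference of 3.07, and the reads of this pair cannot be told apart because no source used here gives the strand setting of the counting.

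Basement membrane chains differed by gene. Lama5, the laminin alpha-5 chain, had 185 CPM in aEC and 23.7 CPM in vEC, whereas Lama4, the alpha-4 chain, had 78.5 CPM in aEC and 104 CPM in vEC. Lama5 lost its call with equal weight for plates, in thinned cells and without plate s483s. Hspg2, perlecan, had 77.7 CPM in aEC and 10.3 CPM in vEC, with the sign turned on plate s169s (-1.34 to 3.63), and in capilEC that plate was lower than the others by -3.59 on the log2 scale. The call of Hspg2 was lost in thinned cells and with a pseudocount of 20. Col18a1, whose end fragment is endostatin, had 66.7 CPM in aEC and no read in vEC, where 3 reads would be 0.213 CPM. It was read in 21.6% of aEC cells and so did not meet the rule. The elastic fibre genes were high in a minority of aEC cells: Fbln5, fibulin 5, was high in 10 aEC cells and 1 vEC cell, Fbln2 in 36 aEC cells and 1 vEC cell, and Eln, elastin, in 15 aEC cells and 5 vEC cells. Fbln2 had 304, 334, 232 and 247 CPM in aEC, against 0, 0, 0.756 and 47.2 CPM in vEC; a single vEC cell held 98.4% of the vEC reads. Sparc and Sparcl1 were near equal in the types, with 2077 against 1987 CPM and 1843 against 1834 CPM, aEC first.

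Genes that set vessel tone gave 2 calls among 22, both endothelins. Edn1, endothelin 1, a strong constrictor, had 66.7, 867, 569 and 591 CPM in aEC, against 129, 340.3, 61.7 and 54.7 CPM in vEC, a log2 difference of 2.40 with the sign turned on s169s. Edn3 had 134, 317, 581 and 501 CPM in aEC, against 38.4, 18.6, 74.6 and 162 CPM in vEC, a log2 difference of 2.30, positive on all plates. The calls did not hold with equal weight for plates (Edn1), or with equal weight for cells, in thinned cells or without plate s482s (Edn3). Nos3, the endothelial nitric oxide synthase, had 549.7 CPM in aEC and 232 CPM in vEC (log2 1.22), and S1pr1, the sphingosine phosphate receptor, 1470.3 CPM in aEC and 568 CPM in vEC (log2 1.36, 1.03 to 1.47 over plates). Calcrl, the receptor shared by CGRP and adrenomedullin, went the other way on every plate, with 124 CPM in aEC and 335 CPM in vEC. Among 4 connexin genes, Gja4, which encodes the arterial gap junction protein Cx37, met the rule with 1.32, 211, 184 and 128 CPM in aEC, against 3.20, 0.952, 2.77 and 1.15 CPM in vEC. It was high in 26 of 116 aEC cells and 0 of 45 vEC cells. On plate s169s both types were low and the sign was turned, and the call was lost without s483s, with equal weight for plates and in thinned cells. Gja1, which encodes Cx43, had 53.2 CPM in aEC and 7.65 CPM in vEC.

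Cell cycle genes (20 measured) gave 4 calls, all with aEC higher, although 8 genes were past 2-fold towards vEC and the list's median was -0.72. By plate the median was -0.70 on s483s and between -0.05 and 0.04 on the other plates. Ccnd2, cyclin D2, stood at 255, 328, 244 and 239.6 CPM in aEC, against 2.13, 0.952, 1.51 and 0.574 CPM in vEC; every aEC plate lay above every vEC plate, and the log2 difference was 5.43. It was high in 39 of 116 aEC cells and 0 of 45 vEC cells, and lost its call in thinned cells. Ccnd1, cyclin D1, had 187 CPM in aEC and 21 CPM in vEC and lost its call under 4 alternatives, whereas Ccnd3 had 238 CPM in aEC and 346 CPM in vEC, so the 3 D-type cyclins did not share a direction. Cdkn1c, an inhibitor that halts the cycle, had 387 CPM in aEC and 43.9 CPM in vEC (log2 3.00), and Cdk19, a kinase of the Mediator complex, 456 CPM in aEC and 35 CPM in vEC (log2 3.53). Among the genes of cells in division, Mki67, Top2a and Cdk1 were near 0 in both types apart from a single vEC cell on plate s483s. That cell held all 271 vEC reads of Mki67, 489 of 492 of Top2a and 460 of 461 of Cdk1. Ccna2, cyclin A2, was spread wider, with 15.9 CPM in aEC and 79.6 CPM in vEC, and 717 of its 1123 vEC reads were in that cell, with reads in 20 vEC cells in all. The cell was the deepest vEC cell, with 854836 reads, and had 135 reads of Lcn2, 364 of Vwf and 0 of Lrg1.

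The other leading aEC genes belonged to none of these groups. Rad54b, a helicase of DNA repair, had 291 CPM in aEC and 2.41 CPM in vEC (log2 5.32). It shares 2068 exon bases with Fsbp on the same strand, and reads in those bases cannot be assigned with certainty. Fsbp itself had a log2 difference of 0.44. Htra1 is a secreted protease whose human gene is mutated in a small vessel disease of the brain. It had 153 CPM in aEC and 1.42 CPM in vEC (log2 4.62, 4.19 to 5.83 over plates). Its call was lost in thinned cells, without plate s169s or s482s, and without the top cell. It was also lost without cells with markers of another class. Cyr61 (Ccn1), a matricellular protein, had 352 CPM in aEC and 26.9 CPM in vEC; Gcnt2, a glycosyltransferase, 279.9 CPM in aEC and 22.9 CPM in vEC; Rapgef4, the cAMP sensor EPAC2, 91.8 CPM in aEC and 4.46 CPM in vEC; and Unc119b, a lipid-binding trafficking factor, 253 CPM in aEC and 15.4 CPM in vEC. Their log2 differences lay between 3.35 and 3.66, and between 2.71 and 4.08 with a single plate left out. Of these genes, Unc119b lost its call in thinned cells. Glul, glutamine synthetase, also met the rule, with 1860.3 CPM in aEC and 363 CPM in vEC. Its exons share bases with Mir8114 on the same strand and Teddm2 on the other, and both of these also met the rule.

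Of 20 measured genes of a venous identity list, 12 met the rule with vEC higher and 0 with aEC higher. The median was -3.43 (-5.02 to -2.44 by plate), and 16 genes differed 2-fold or more, all towards vEC. Slc38a5, a glutamine and neutral amino acid transporter, stood at 73.3, 5.30, 36.4 and 84.2 CPM in aEC, against 3666, 1631, 1804 and 1471 CPM in vEC; every aEC plate lay below every vEC plate. It had a pooled log2 difference of -5.28, and it was high in 11 of 116 aEC cells and 42 of 45 vEC cells. Vwf, von Willebrand factor, which tethers platelets, had 73.3, 269, 136 and 250 CPM in aEC, against 1224, 1583, 1459.6 and 1185 CPM in vEC, a log2 difference of -2.68. It was high in 32 of 116 aEC cells and 39 of 45 vEC cells, so aEC cells with the gene were not rare. Ackr1, the chemokine-binding Duffy receptor of venules, had 0, 0.136, 0.430 and 1.20 CPM in aEC, against 789, 439, 466 and 342 CPM in vEC; every aEC plate lay below every vEC plate. Its log2 difference of -6.44 was larger than that of Slc38a5, but 46.7% of vEC cells had a read, and so it did not meet the rule. Tek and Emcn, also on the list, were slightly higher in aEC, with log2 differences of 0.64 and 0.29.

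The acute phase and NF-kB group, 20 genes that endothelium switches on with inflammatory signals, gave 6 calls, all with vEC higher: Lcn2, Lrg1, Ptgs2, Il1r1, Cebpd and Nfkbiz. Its median was -1.07 (-2.43 to -0.55 by plate); 4 of the 6 are also on the venous list. Il1r1, the receptor of interleukin 1, stood at 0, 2.45, 0.603 and 16 CPM in aEC, against 425, 359, 193 and 216 CPM in vEC, a log2 difference of -4.62. Ptgs2 had 0, 0, 0 and 22.2 CPM in aEC, against 228, 369, 333 and 291 CPM in vEC; every aEC plate lay below every vEC plate, and 236 of its 240 aEC reads came from a single cell on plate s483s. Cebpd, a transcription factor of the acute phase, had 61.4, 21.2, 11.1 and 15.3 CPM in aEC, against 471, 367, 198 and 165 CPM in vEC, a log2 difference of -3.60. Ch25h, cholesterol 25-hydroxylase, had 4.02 CPM in aEC and 318 CPM in vEC and a read in 46.7% of vEC cells, under the share the rule needs; 121 of its 126 aEC reads were in 1 cell. Nfkbiz met the rule narrowly (14.1 CPM in aEC and 93.1 CPM in vEC) and lost the call in thinned cells, with a pseudocount of 20 and without plate s169s or s480s.

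The other 14 genes of the group were mixed: 5 were 2-fold or more higher in vEC without meeting the rule, Ch25h among them, and 1 in aEC. Nfkbia, the inhibitor that NF-kB itself switches on, had 745 CPM in aEC and 1234 CPM in vEC (log2 -0.72) and Socs3 28.3 CPM in aEC and 66.2 CPM in vEC (log2 -1.10). Nfkb2, Relb and Stat3 were higher in aEC, with log2 differences of 1.22, 0.95 and 0.97, each with both signs over plates. Cp, ceruloplasmin, was near equal, with 501 CPM in aEC and 508 CPM in vEC. Immediate early genes, which dissociation can switch on, had a median of -0.02, whose sign changed with the scaling; Fos had 1078 CPM in aEC and 943 CPM in vEC and Dusp1 1002 CPM in aEC and 1108 CPM in vEC. Ier3 was their only call, with 178 CPM in aEC and 1012 CPM in vEC, vEC higher on each plate (-3.26 to -1.94).

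Around prostaglandin, the genes upstream and downstream of Ptgs2 leaned to vEC too (12 measured, median -0.95, -1.36 to -0.21 by plate). Pla2g4a, the phospholipase that frees arachidonic acid, had 131, 81.8, 133 and 101 CPM in aEC, against 442, 413, 307 and 380.1 CPM in vEC, lower in aEC on every plate and short of 4-fold. Ptgis, prostacyclin synthase, had 4.57 CPM in aEC and 75.1 CPM in vEC and was read in 24.4% of vEC cells. Abcc4, an exporter of prostaglandins, was near equal, with 601 CPM in aEC and 479 CPM in vEC.

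**Figure D3:**
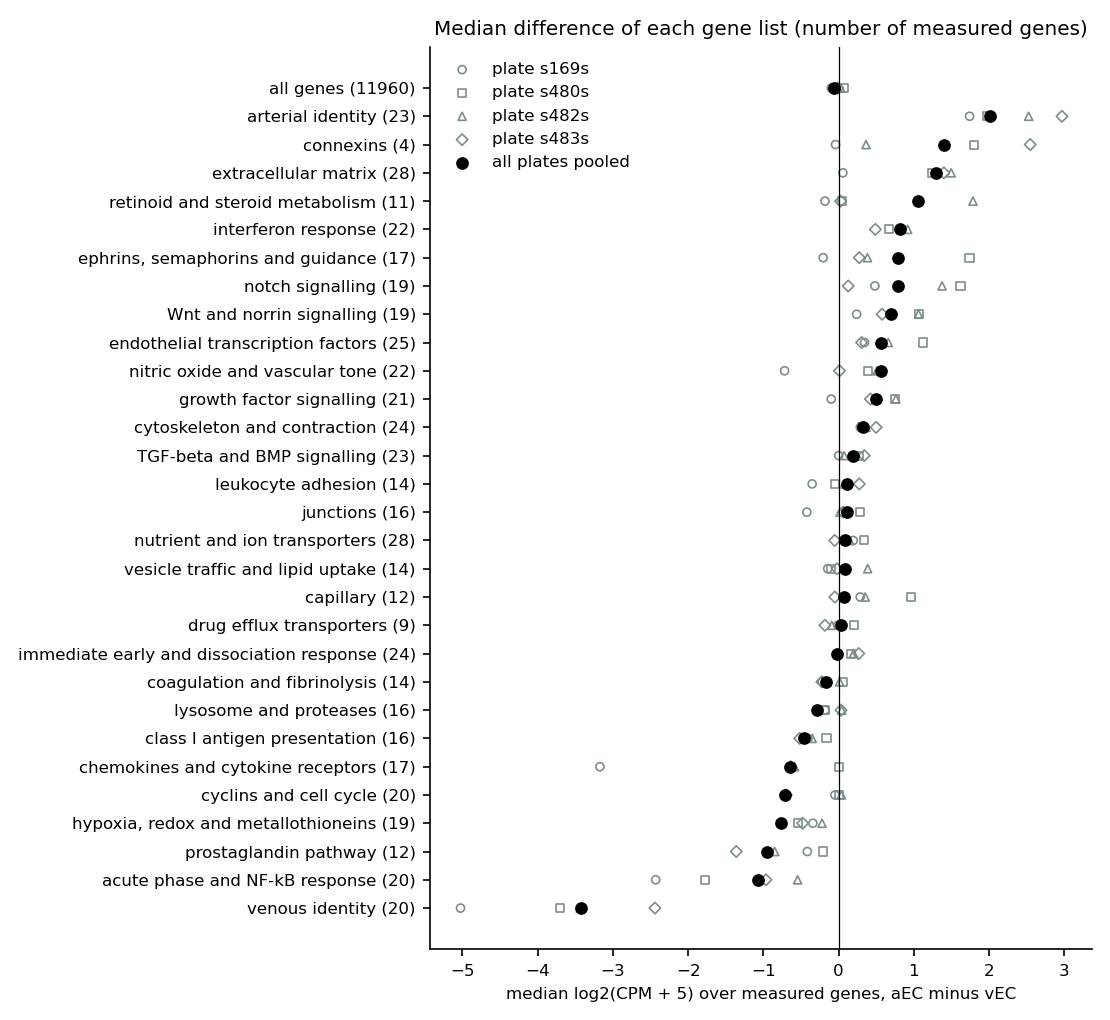
Median log2 difference, log2(CPM + 5) in aEC minus vEC, over the measured members of each gene list, whose number stands in brackets: filled points pool all plates and open symbols are single plates. Arterial identity lies farthest right at 2.01 and venous identity farthest left at -3.43, while the lists of transporters, junctions and efflux pumps lie close to the line at 0.

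Adhesion genes for white blood cells divided. Vcam1, which binds their integrin alpha-4, stood at 259, 2.17, 123 and 223 CPM in aEC, against 1856, 940.1, 704 and 669 CPM in vEC, a log2 difference of -2.77. Icam1 had 58.2 CPM in aEC and 182 CPM in vEC (log2 -1.57), while Icam2 had 623 CPM in aEC and 613 CPM in vEC. Selp, P-selectin, was read in 0.862% of aEC cells and in 6.67% of vEC cells. Of 17 chemokine and cytokine receptor genes Il1r1 met the rule with vEC higher and Cxcl12 with aEC higher. Cxcl12, a chemokine that endothelium displays to passing cells, stood at 1486, 4229.7, 3198 and 3292 CPM in aEC, against 410, 231, 547 and 271 CPM in vEC; every aEC plate lay above every vEC plate. It was high in 112 of 116 aEC cells and 35 of 45 vEC cells, a log2 difference of 3.18. On plate s169s Cxcl12 was lowest in aEC, and in capilEC this plate was lower than the others by -1.85 on the log2 scale. Il6st, the receptor chain shared by interleukin 6 cytokines, was lower in aEC on every plate, with 165 CPM in aEC and 529 CPM in vEC.

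Interferon genes did not follow the acute phase group: 22 measured genes had a median of 0.82 (0.49 to 0.92 by plate), with 8 genes past 2-fold towards aEC and 1 towards vEC. Irf7, the factor that amplifies the response, met the rule with aEC higher, with 443, 343, 419.6 and 272 CPM in aEC, against 99.5, 69.5, 53.9 and 45.9 CPM in vEC. Isg15, a ubiquitin-like protein that interferon induces, had 147 CPM in aEC and 35.8 CPM in vEC, higher in aEC and short of the rule. Ifitm1, a membrane protein that blocks virus entry, met it with vEC higher: it had 1.32, 0.815, 22.1 and 0.925 CPM in aEC, against 312, 126, 339 and 155 CPM in vEC, and 233 of its 275 aEC reads came from the same s482s cell that held most of the Nr2f2 reads. Without cells that carried markers of another class the log2 difference of Ifitm1 was -5.25 and that of Nr2f2 -4.51. Class I antigen genes (16 measured) had a median of -0.46 (-0.52 to -0.16 by plate). H2-Q6 met the rule with vEC higher (24 CPM in aEC and 136 CPM in vEC), and its near-identical neighbour H2-Q7 did not (44.6 CPM in aEC and 183 CPM in vEC). How the counting split reads between these copies is uncertain. H2-Q6 lost its call with equal weight for cells, in thinned cells, with a pseudocount of 20 and without plate s483s. B2m, the common light chain, had 1972 CPM in aEC and 1984 CPM in vEC.

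Several other leading vEC genes encode enzymes and secreted proteins; they are grouped here after their values were seen. Adh1, an alcohol dehydrogenase that oxidises retinol, stood at 1.98, 17.8, 1.12 and 9.06 CPM in aEC, against 601, 526, 773 and 857 CPM in vEC; every aEC plate lay below every vEC plate, a log2 difference of -5.85. Stra6, the membrane receptor for retinol-binding protein, was higher in aEC, with 0.660, 325, 246 and 318 CPM in aEC, against 1.42, 5.71, 2.77 and 14.3 CPM in vEC. Adh1 and Stra6, both of the retinoid and steroid list, thus differed in direction; that list (11 measured) had a median of 1.06 (-0.18 to 1.78 by plate), with 6 genes past 2-fold towards aEC and 3 towards vEC. Stra6 was near 0 in both types on plate s169s, as it was lower there in capilEC by -3.74 on the log2 scale. Ctsc, a lysosomal peptidase that activates proteases of white blood cells, had 9.24, 11.1, 66.1 and 40.9 CPM in aEC, against 1209.8, 838, 786 and 656 CPM in vEC, a log2 difference of -4.16. Rnase4 had 19.9 CPM in aEC and 626 CPM in vEC and Ang 1.79 CPM in aEC and 121 CPM in vEC; these secreted ribonucleases share 115 exon bases on the same strand, and reads of one may be counted to the other. Cpe, carboxypeptidase E of the secretory path, had 34.2 CPM in aEC and 493 CPM in vEC. Fmo2, a flavin monooxygenase, had 11.8 CPM in aEC and 250.1 CPM in vEC, and Car14, a membrane carbonic anhydrase, 16.4 CPM in aEC and 265 CPM in vEC. Gpr182, an atypical chemokine receptor known from sinusoids and lymphatics, had 0.830 CPM in aEC and 307 CPM in vEC, and Dusp23, a phosphatase, 13.3 CPM in aEC and 205 CPM in vEC. Apart from Stra6, each of these genes had the same direction on all plates, which the choice of leading genes required. None of the 20 leading vEC genes lost its call in any alternative tried.

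Barrier genes had no common direction. Of 28 transporter genes 2 met the rule with aEC higher and 1, Slc38a5, with vEC higher, beside 0.510% and 0.452% of all genes. Past 2-fold lay 7 towards aEC and 4 towards vEC, beside 15.7% and 15.6% of all genes, and the median was 0.08. Slc2a1, the glucose transporter, had 3860 CPM in aEC and 2185 CPM in vEC and was high in all 116 aEC and all 45 vEC cells. None of 9 efflux pumps met the rule: Abcb1a, P-glycoprotein, had 809.9 CPM in aEC and 796 CPM in vEC, and Abcg2 990 CPM in aEC and 1535 CPM in vEC. Among the junction genes, Cldn5, claudin 5, had 3868 CPM in aEC and 3269 CPM in vEC, Ocln 421 CPM in aEC and 508 CPM in vEC and Tjp1 319.9 CPM in aEC and 326 CPM in vEC. Only Cgnl1, a cingulin relative at the junction's inner face, met the rule (315 CPM in aEC and 74.8 CPM in vEC), at the edge of it. Its call was lost without plate s169s or s482s, with a pseudocount of 20 and without cells with markers of another class. Slc1a1, a glutamate transporter, had 119 CPM in aEC and 17.2 CPM in vEC and lost its call with a pseudocount of 20 and in thinned cells. It shares 1524 exon bases with 4430402I18Rik on the other strand, which also met the rule. Slc26a10, an anion transporter relative, had 380.4 CPM in aEC and 63.5 CPM in vEC and lost its call without s483s.

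Some transporters leaned to vEC without a call, as Slc16a1, the lactate transporter, did with 229, 194, 163 and 158 CPM in aEC, against 917, 275, 604 and 655 CPM in vEC, and Car4, a carbonic anhydrase of capillaries, with 498, 134, 149 and 272 CPM in aEC, against 509.5, 451, 690 and 915 CPM in vEC. Mfsd2a, the lysolipid transporter that restrains vesicle traffic across the barrier, met the rule in the other direction, with 598, 609.7, 282 and 247 CPM in aEC, against 41.9, 4.28, 155 and 8.41 CPM in vEC. The caveola genes Cav1 (1167 against 1604 CPM) and Cav2 (567 against 775 CPM), aEC first, were slightly higher in vEC and Plvap was almost unread (6.26 CPM in aEC and 0.708 CPM in vEC). Apoe, the lipid carrier, was lower in aEC on every plate, with 788 CPM in aEC and 1614 CPM in vEC.

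Other groups gave scattered differences. Of 24 cytoskeleton genes Stmn2 and Eps8l2, an actin-capping relative, met the rule with aEC higher (409 CPM in aEC and 54.8 CPM in vEC for Eps8l2). The exons of Eps8l2 share 697 bases with B230206H07Rik on the other strand, which also met the rule. Tmsb10, thymosin beta-10, which holds actin monomers, met it with vEC higher: it stood at 50.8, 42.7, 62 and 104 CPM in aEC, against 558, 493, 645 and 551 CPM in vEC, and every aEC plate lay below every vEC plate. The hypoxia and redox list (19 measured, median -0.77) gave no call. Its plate medians were -0.55 to -0.22, so the pooled median lay outside the range of the plates. Its pair of hypoxia factors split. Epas1 had 2177, 2364, 1754 and 1575 CPM in aEC, against 803, 919, 697 and 703 CPM in vEC, higher in aEC on every plate. Hif1a had 6.60, 390.2, 169.8 and 161 CPM in aEC, against 245, 572, 634 and 549 CPM in vEC, lower in aEC on every plate. Both were short of 4-fold. Cat, catalase, had 239.6 CPM in aEC and 479 CPM in vEC and Ldha, lactate dehydrogenase, 440.1 CPM in aEC and 753 CPM in vEC, both lower in aEC on each plate.

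Set against the 787 capilEC cells, the called genes fell into different patterns. The 61 aEC genes had a median level of 277 CPM in aEC, 135 CPM in capilEC and 34.4 CPM in vEC, and the 54 vEC genes 27.2 CPM in aEC, 70.8 CPM in capilEC and 262 CPM in vEC. Of the 61, capilEC lay within 2-fold of aEC or beyond it for 31, near vEC for 13 and between them for 17. Of the 54, it lay near vEC for 10, near aEC for 23 and between for 21. Gkn3, Stmn2 and Bmx were far lower in capilEC than in aEC, at 43, 39 and 15 CPM. By contrast, 9 of the 61 had a higher level in capilEC than in aEC, among them Mfsd2a at 851 CPM, Stra6 at 439 CPM and Cxcl12 at 3621 CPM, and for these vEC was the type that stood apart. On the venous side Lrg1 and Ptgs2 were about as low in capilEC as in aEC, at 1.66 and 7.50 CPM, while Slc38a5 stood at 764 CPM, between the types.

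**Figure D4:**
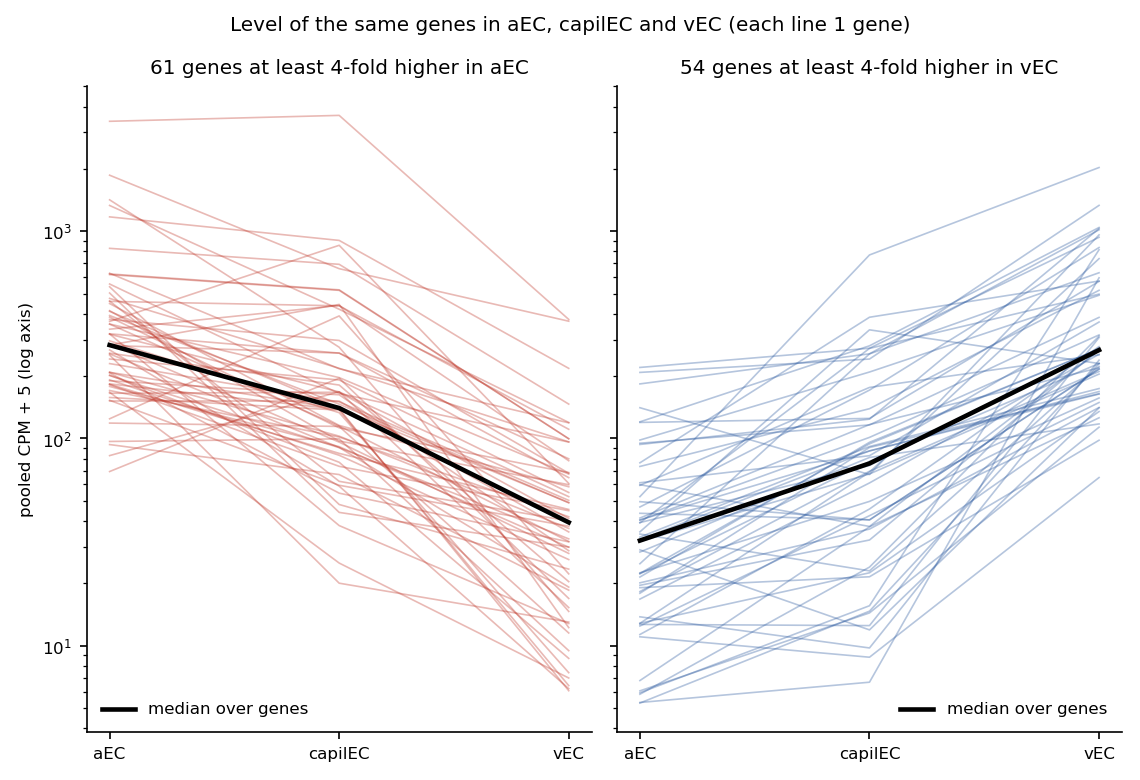
Pooled level (CPM + 5, log axis) in aEC, capilEC and vEC of the 61 genes higher in aEC (left panel) and the 54 higher in vEC (right panel); each thin line is 1 gene and the thick line the median over genes. Without the added 5, the medians were 277, 135 and 34.4 CPM in the left panel (aEC, capilEC and vEC) and 27.2, 70.8 and 262 CPM in the right panel.

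Cell by cell, the called genes that kept their direction on all plates, without predicted genes, separated the types. Of 52 such aEC genes an aEC cell had 9 to 44 high (median 23) and a vEC cell 1 to 18 (median 7), and of 49 vEC genes an aEC cell had 0 to 16 (median 4) and a vEC cell 5 to 45 (median 25). In 115 of 116 aEC cells more aEC than vEC genes were high, in 1 the numbers were equal, and in 45 of 45 vEC cells more vEC genes were high. These genes were chosen on the same cells, so the separation is no test. The capilEC cells had a median of 13 of the aEC genes and 7 of the vEC genes high.

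**Figure D5:**
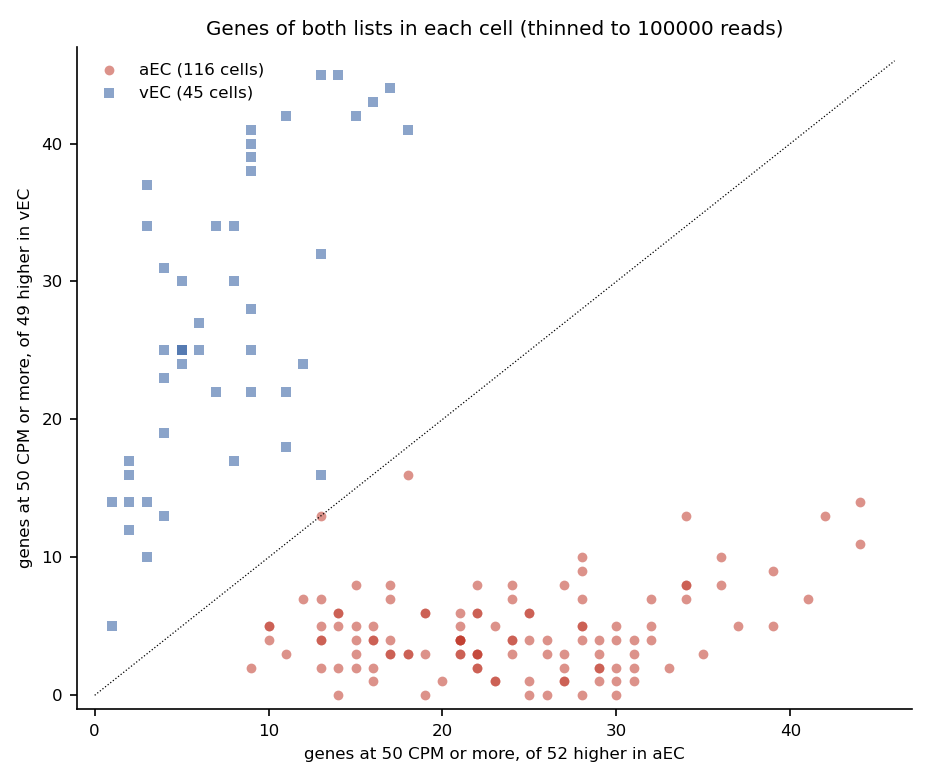
Each aEC cell (circles) and vEC cell (squares) by the number of the 52 aEC genes (horizontal axis) and of the 49 vEC genes (vertical axis) that were at 50 CPM or more after thinning to 100000 reads; the dotted line marks equal numbers. No vEC cell lies below the line and no aEC cell above it, with 1 aEC cell on it.

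Within aEC the arterial genes did not all sit in the same cells; the genes used here were chosen after their values were seen. Of the 52 aEC cells high for Gkn3, 37 were high for Mgp, 32 for Bmx and 25 for Hey1, against 7, 17 and 14 of the 64 cells not high for Gkn3. For Car4 the order was reversed, with 10 of the 52 and 28 of the 64. The 10 cells high for Fbln5, none of them on plate s169s, included 9 high for Mgp, 6 for Eln and 4 for Cytl1, against 35, 9 and 1 of the other 106 cells, and 1 of the 10 was high for Mfsd2a, against 37 of the 106. In vEC the 19 cells high for Ackr1 included 19 high for Lcn2, 16 for Lrg1 and 16 for Ptgs2, against 13, 7 and 11 of the other 26. Il1r1 did not go with Ackr1, being high in 8 of the 19 and 12 of the 26. Vwf was high in 19 of the 19 and 20 of the 26.

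Markers of the endothelium itself were present in both types: all 15 were above 5 CPM in each, and they summed to 20636 CPM in aEC and 15462 CPM in vEC. Markers of neighbouring cells were not equal between them. The mural list summed to 916 CPM in aEC and 405 CPM in vEC, the pericyte list to 254 CPM in aEC and 139 CPM in vEC, and the smooth muscle list to 384 CPM in aEC and 313 CPM in vEC. The microglial list summed to 362 CPM in aEC and 220 CPM in vEC. Leukocyte markers, of which 4 of 11 had no read in aEC and 4 had none in vEC, came to 15.2 CPM in aEC (2.58 to 23.3 CPM over plates) and 123 CPM in vEC (8.88 to 569.8 CPM), most of it Cd79a (0.0958 CPM in aEC and 97.1 CPM in vEC), while the pan-leukocyte gene Ptprc had 0.735 CPM in aEC and 0.567 CPM in vEC. Fibroblast markers summed to 11.4 CPM in aEC and 30.1 CPM in vEC. The astrocyte list summed to 2233 CPM in aEC and 476 CPM in vEC, of which most was Glul; without Glul the sums were 373 CPM in aEC and 113 CPM in vEC. Cells were taken to carry markers of another class when their mural or microglial sum passed 10% of the median of pericytes or microglia, or their astrocyte or red cell sum 1% of reads. By these limits 10 aEC cells and 0 vEC cells did, and without them 61 genes met the rule with aEC higher and 53 with vEC higher. The limits did not use the leukocyte list, whose highest sum was 976.5 CPM in an aEC cell and 7999.9 CPM in a vEC cell, and the highest mural sum of a vEC cell was 2078.6 CPM. No doublet caller was run, and the part of such RNA in single genes was not tested.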

How the data were processed

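Cells were prepared with Smart-seq2, which reads whole transcripts without molecular identifiers. The deposited table holds the authors' raw read counts for 46517 gene rows; the tools named, per the submitters' processing notes, are featureCounts, Subread 1.4.6-p5 and SAMtools 1.16.1, and both GRCm38 and GRCm39 occur there with no role stated. Strand setting and annotation release are not given in the sources used here. From the deposited counts, reads were summed over the 116 aEC and 45 vEC cells, pooled and by plate, and scaled to CPM on all gene reads (Python 3.11.15, numpy 2.4.6, pandas 2.3.3, scipy 1.17.1, matplotlib 3.10.9). A pseudocount of 5 CPM was added before log2. All cells of both labels were kept, with at least 100185 reads each; cells were thinned to 100000 reads for shares of cells. With 1 sample per type no count model was fitted; edgeR 4.0.16 and DESeq2 1.42.0 (R 4.3.3) gave alternative scaling factors only. The step was tested on simulated data with planted differences wider than 4-fold, in well-read genes and without plates. Differences near the edge of the rule and uneven plates were not covered by it. The genes named first are the 20 with the widest difference in each direction that met the rule of size with the same direction on every plate, leaving out mitochondrial, ribosomal, predicted and clone-named genes. All lists and members were chosen with earlier results of these data known. A gene that the rule names is counted but not reported here by name. Gene overlaps come from GENCODE M21 on GRCm38: 35 of the 61 aEC genes and 16 of the 54 vEC genes share exon bases with another gene. In some overlapping groups more than 1 gene met the rule, so the same locus can be counted more than once. Alternatives were other scalings, pseudocounts and filters, equal weights, and leaving out each plate, the top cell of each gene, or cells with markers of another class.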

Additional observations from a re-analysis of the deposited data

How the results depend on the processing

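The number of genes that met the rule was 61 with aEC higher and 54 with vEC higher. Over the 16 alternatives none of the 20 leading genes in each direction changed sign. These genes were chosen for wide differences with the same direction on every plate, so their stable sign is no test. In cells thinned to 100000 reads 40 genes met it with aEC higher. Without a minimum share of cells 183 met it with aEC higher and 148 with vEC higher. Leaving out a plate gave 53 to 82 genes higher in aEC and 56 to 65 higher in vEC. In every alternative 24 of the 61 and 35 of the 54 calls were kept. Values were counted once per list or named gene in each alternative that applied to it. Of the list values 36 moved by more than the spread between plates and 370 did not. Among the values of named genes 31 moved and 609 did not, and a gene could be counted more than once. TMM factors moved the median of all genes by 0.18 and leaving out the top cell of each gene by 0.16 on the log2 scale, so list medians nearer to 0 than that have no settled sign; those of the coagulation, efflux, junction, vesicle, adhesion, transporter, capillary and immediate early lists changed sign in 1 alternative or more. The cause of these shifts was not tested. Depth limits genes near the floor of 3 reads, which is 0.0958 CPM in pooled aEC and 0.213 CPM in pooled vEC but 1.98 and 1.07 CPM on plate s169s. No paired analysis was possible because each type is 1 sample and no mouse is named for a cell.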
